A study of Mus musculus with 18 samples.

Results

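Microglia are the resident macrophages of the brain, and the mRNAs described here belong to 37 genes that mark their identity. The genes were taken as a fixed list of symbols of known microglial markers, a rule that sets no threshold on these data. The list was chosen with earlier results of these data known. All 37 had a row among the 13973 genes of the deposited count table, and all 37 passed the filter on low counts. They were followed through polysome RNA sequencing of slices of mouse hippocampus and cortex. The slices came from male C57BL/6N mice of postnatal day 28 to 35, either wild type (WT) or knockout for Fmr1 (KO), the KO in all cells of the animal on a C57BL/6 background. Slices were incubated with 20 µM homoharringtonine (HHT) or with DMSO (vehicle) for 30 min. HHT is a drug that holds newly assembled ribosomes at their first codons but lets those already elongating run off. Each lysate pooled 10 slices from 2 to 3 mice and was made without detergent until it had been cleared by centrifugation. It gave 3 libraries: the cleared lysate (input), and medium and heavy polysome pools of a sucrose gradient whose limits were set by immunoblot for FMRP, the protein made from Fmr1.

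Genotype, treatment and fraction together define 12 groups of libraries, 18 libraries in all. Each of the 6 HHT groups holds 2 libraries, and each vehicle group holds 1. A fraction therefore has 4 HHT and 2 vehicle libraries over both genotypes. The 6 lysates each supply all 3 fractions, so fractions of a lysate are not independent. All values come from cleared lysates of whole slices. In these, the number of microglia, the RNA per microglial cell and the share of an mRNA recovered in the cleared lysate cannot be told apart.

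As background, microglia read their surroundings through receptors such as Cx3cr1, P2ry12 and Csf1r, and depend on signalling through Csf1r to survive. They supply most of the complement C1q of the brain, signal through Trem2 and its adaptor Tyrobp, and digest what they engulf in a well-developed lysosomal system. Most of their identity genes encode proteins that enter the endoplasmic reticulum and end at the cell surface, in lysosomes or outside the cell. A smaller set encodes transcription factors, kinases and actin regulators that are made on free ribosomes.

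Of the 37 members, 29 encode a membrane or secreted product and 8 a cytosolic or nuclear one. The 8 are the transcription factors Spi1 and Irf8, the kinase Lyn, the phosphatase Inpp5d, the exchange factors Dock2 and Cyth4, the actin-binding Aif1 and the kinase C substrate Plek. This division, like the list, was made with earlier results of these data known. It was checked on the coding sequences of GENCODE release M21 (GRCm38, the assembly that mm10 denotes). A hydrophobic stretch was defined as a mean Kyte-Doolittle hydropathy of at least 1.6 over 11 residues within the first 35, or over 19 residues anywhere. All 29 membrane or secreted products held such a stretch, 26 of them within the first 35 residues, and 0 of the 8 cytosolic or nuclear products did. Of the 8, Dock2 came closest, at 1.589 over 19 residues, just under the threshold of 1.6. Because the results below divide along this line, the first 105 bases of 8 coding sequences are printed, 4 of each kind. Capitals mark the 33 bases of the most hydrophobic window of 11 residues near the start where it reached the threshold.
C1qb: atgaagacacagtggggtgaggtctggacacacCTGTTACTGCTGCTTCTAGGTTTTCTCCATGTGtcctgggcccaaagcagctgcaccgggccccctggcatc
Trem2: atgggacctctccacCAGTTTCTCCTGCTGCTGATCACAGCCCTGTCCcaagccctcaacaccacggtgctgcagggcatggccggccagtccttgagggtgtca
Lyz2: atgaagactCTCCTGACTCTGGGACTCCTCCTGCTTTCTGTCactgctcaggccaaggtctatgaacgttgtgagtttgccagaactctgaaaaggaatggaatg
Cd68: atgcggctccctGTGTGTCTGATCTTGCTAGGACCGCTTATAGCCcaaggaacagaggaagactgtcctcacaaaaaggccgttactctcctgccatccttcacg
Spi1: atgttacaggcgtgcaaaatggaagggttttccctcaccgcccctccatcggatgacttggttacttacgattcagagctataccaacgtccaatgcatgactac
Irf8: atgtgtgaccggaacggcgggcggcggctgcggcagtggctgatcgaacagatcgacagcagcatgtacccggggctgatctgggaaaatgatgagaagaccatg
Plek: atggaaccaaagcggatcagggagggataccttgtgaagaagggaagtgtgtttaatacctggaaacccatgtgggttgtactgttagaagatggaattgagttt
Lyn: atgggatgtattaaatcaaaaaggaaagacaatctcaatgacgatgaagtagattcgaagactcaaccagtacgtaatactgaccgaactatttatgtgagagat

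The genes of these 8 sequences lie at chr4:136880129-136886187 (C1qb, minus strand), chr17:48346401-48354147 (Trem2, plus), chr10:117277331-117282321 (Lyz2, minus), chr11:69664213-69666153 (Cd68, minus), chr2:91082390-91115756 (Spi1, plus), chr8:120736358-120756694 (Irf8, plus), chr11:16971206-17052381 (Plek, minus) and chr4:3678115-3813122 (Lyn, plus). C1qb shares its stretch of chromosome 4 with the other C1q chains, C1qc at chr4:136889804-136893065 and C1qa at chr4:136895917-136898803, all on the minus strand. The hydropathy of the best window near the start was 2.73 for C1qb, 2.1 for Trem2, 2.63 for Lyz2 and 2.79 for Cd68. It was 1.14 for Plek, 0.49 for Irf8, 0.48 for Spi1 and -0.67 for Lyn. Coding lengths of the members ran from 276 to 3879 nt for the membrane or secreted products and from 441 to 5484 nt for the others.

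The library columns of the deposited count table totalled 6226237 to 13834652 estimated counts. Levels below are counts-per-million values (CPM) after TMM scaling of library sizes. Member counts were small, from 2.81 to 708.7 per library, and 9 members had a count under 10 in some library, which limits the precision of those. Fmr1 ran from 13.9 to 32.2 CPM in the 9 WT libraries and from 4.63 to 8.53 CPM in the 9 KO libraries, so the genotype labels separated. Markers of other blood leukocytes were absent from the genes tested (0 of 12), and 5 of 10 markers of border macrophages of the brain were tested. The 5 summed to 25.2 to 26.7 CPM in vehicle input and 26.6 to 38.7 CPM in HHT input, against 281 to 328.8 and 430 to 538.4 CPM for the 37 members.

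Per length, on the rescaled TPM scale of the deposited table, the 3 C1q chains were the highest members in the vehicle inputs. C1qb stood at 36.1 in WT and 53.0 in KO, C1qc at 30.7 and 39.8, and C1qa at 26.5 and 33.3. Plek, a substrate of protein kinase C in blood and myeloid cells, followed at 32.2 and 26.1, and the myeloid transcription factor Spi1 (PU.1) at 28.8 and 22.8. The lowest were the endosomal RNA sensor Tlr7 at 1.56 and 1.94 and the CD45 phosphatase Ptprc at 1.32 and 1.21. These 5 led by the mean of both libraries, and their order differed between WT and KO, each 1 library.

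The first comparison set HHT against vehicle within each fraction, averaged over genotypes. In input, 18 of the 37 members rose and 0 fell. All 18 encode membrane or secreted products, of which there are 29. The median change of the 29 was 0.96 on the log2 scale, and all 29 estimates were above 0. Among the 8 cytosolic or nuclear members 0 changed, 0 had an unadjusted p under 0.05, and their median was -0.16. Of all genes, 12.2% rose and 0.215% fell in input, and the median over all genes was -0.00. Calls rest on edgeR's quasi-likelihood test, with p-values adjusted by Benjamini-Hochberg over all 13973 genes and called at 0.05.

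**Figure D1:**
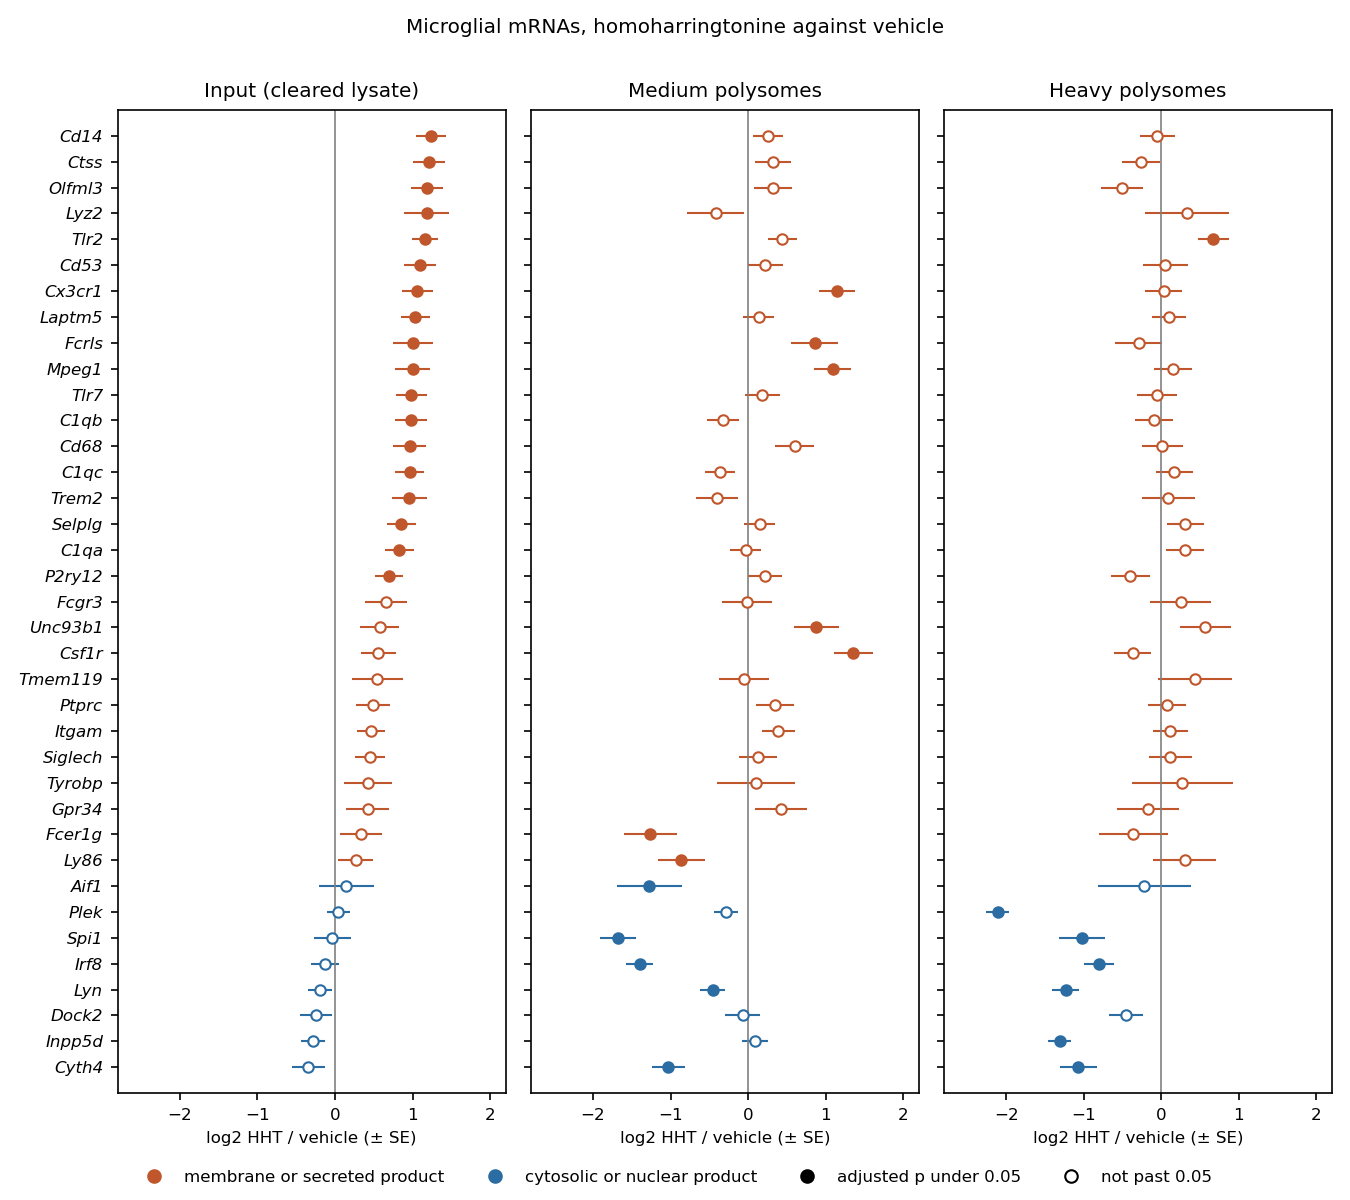
Change of each of the 37 members with homoharringtonine in input, medium and heavy polysomes, as log2 HHT over vehicle averaged over genotypes, with bars of 1 SE. Orange points are membrane or secreted products and blue points cytosolic or nuclear ones, and filled points passed an adjusted p of 0.05. In input the orange points all lie above 0 and 18 are filled, while in heavy polysomes 6 of the 8 blue points are filled and below 0.

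By role, all 6 lysosomal, secreted and phagocytic proteins and all 3 C1q chains rose in input. Ctss, the lysosomal protease cathepsin S, stood at 8.61 CPM in WT vehicle and 10.8 in KO vehicle. Under HHT it stood at 18.3 and 24.1 CPM in WT and at 22.1 and 25.6 CPM in KO. Every HHT input was above both vehicle inputs, with a log2 change of 1.21 ± 0.21 (SE; adjusted p = 0.00243). The other 5 rose by between 0.97 (Cd68) and 1.19 (Olfml3) on the log2 scale. Cd68 is a late endosomal glycoprotein, Lyz2 a lysozyme, Mpeg1 a pore-forming protein of phagosomes, Laptm5 a lysosomal membrane protein and Olfml3 a secreted protein enriched in microglia.

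The C1q chains rose in input by 0.83 ± 0.19 (C1qa), 0.98 ± 0.21 (C1qb) and 0.96 ± 0.19 (C1qc) on the log2 scale. C1qb went from 12.3 CPM in WT vehicle and 18.4 in KO vehicle to 27.8 and 28.0 CPM in WT HHT and 27.9 and 35.6 CPM in KO HHT. The vehicle and HHT inputs did not overlap.

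The Toll-like receptor machinery had 3 of 5 members called. Tlr2, a receptor for bacterial lipopeptides, stood at 6.34 and 5.41 CPM in the WT and KO vehicle inputs, and at 12.5 and 12.7 CPM in WT HHT and 12.4 and 14.8 CPM in KO HHT. Its rise of 1.1588 ± 0.16 on the log2 scale had the smallest adjusted p of the members in input (0.0012). Cd14, the co-receptor for lipopolysaccharide, rose by 1.24 ± 0.20 (adjusted p = 0.00169), from 7.70 and 10.3 CPM in vehicle to 22.0 and 22.0 CPM in WT HHT and 17.4 and 22.9 CPM in KO HHT. Tlr7 rose by 0.99 ± 0.20. Unc93b1, the chaperone that brings endosomal Toll-like receptors to their compartment, and Ly86 (MD-1) did not pass, at 0.57 and 0.27 on the log2 scale.

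Of the 8 surface receptors and sensors, Cx3cr1, P2ry12 and Cd53 rose in input. Cx3cr1, the fractalkine receptor, went from 8.94 and 12.9 CPM in the WT and KO vehicle inputs to 21.0 and 24.6 CPM in WT HHT and 19.4 and 25.1 CPM in KO HHT, a log2 change of 1.06 ± 0.20 (adjusted p = 0.00385). P2ry12, the ADP receptor of microglial processes, rose by 0.69 ± 0.18. The tetraspanin Cd53 rose by 1.09 ± 0.21. The other 5 of this group, among them Csf1r (0.56 ± 0.23, adjusted p = 0.16) and Tmem119 (0.55 ± 0.32, adjusted p = 0.392), did not pass.

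Trem2 and the Fc receptor-like Fcrls were the 2 of 5 immunoreceptor genes called in input. Trem2, the lipid-sensing receptor, rose by 0.96 ± 0.23 (adjusted p = 0.0124), from 2.04 and 3.89 CPM in vehicle to 5.68 and 5.98 CPM in WT HHT and 4.30 and 6.04 CPM in KO HHT. Its adaptor Tyrobp had a change of 0.43 ± 0.31 (adjusted p = 0.527), and the Fc receptor gamma chain Fcer1g one of 0.34 ± 0.27. Of the 2 adhesion genes, the P-selectin ligand Selplg rose by 0.86 ± 0.19 and the integrin Itgam (CD11b) did not pass (0.47 ± 0.18, adjusted p = 0.122).

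None of the cytosolic and nuclear members passed in input. Plek stood at 42.8 and 35.2 CPM in vehicle and 35.9 to 52.2 CPM under HHT. Spi1 stood at 12.3 and 9.98 CPM in vehicle and 7.25 to 15.5 CPM under HHT, and Irf8 at 5.66 and 6.60 against 4.81 to 7.09 CPM. Those ranges overlap. For Inpp5d, Dock2 and Lyn all 4 HHT inputs lay below both vehicle inputs, by small margins: their log2 changes were -0.28, -0.24 and -0.19, and none passed.

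Without a test, 21 members had all 4 HHT inputs above both vehicle inputs and 3 had them all below, and the same was true of 18.4% and 11.3% of all genes. All 21 were membrane or secreted products. Leaving out each HHT lysate in turn gave 15 to 18 calls. In WT slices alone 13 members rose, and in KO slices alone 0 passed, as did 0 of all genes, with 17 members at an unadjusted p under 0.05 and a smallest adjusted p of 0.106. The estimates in KO slices were above 0 for 31 of 37. The KO vehicle input itself was above the WT vehicle input for 25 of 37 members, with a median difference of 0.32 on the log2 scale against 0.01 over all genes. The difference between the genotypes in the response was tested and did not pass for any member.

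Markers of other cell types moved in input as well. Of 15 endothelial and mural markers 8 rose, of 15 astrocyte markers 7, of 15 oligodendrocyte markers 6 and of 15 neuron markers 4, and 0 fell in each list. Of all genes, 12.2% rose and 0.215% fell. The endothelial and mural markers summed to 70.3 to 86.0 CPM in vehicle input and 171.9 to 191.6 CPM in HHT input. The astrocyte markers summed to 3021 to 3484 and 4299 to 4882 CPM. Border macrophages had 1 of 5 called, the mannose receptor Mrc1 at 0.86 ± 0.24. The part of these cell types in the microglial result was not tested.

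In medium polysomes the members divided. HHT raised 5 and lowered 7 of the 37, where 25.4% of all genes rose and 21.5% fell. The 5 that rose, Csf1r, Cx3cr1, Mpeg1, Unc93b1 and Fcrls, encode membrane proteins. The 7 that fell were Spi1, Irf8, Aif1, Cyth4 and Lyn of the cytosolic and nuclear members, and Fcer1g and Ly86 of the others. Medians were 0.22 for the 29 membrane or secreted products and -0.74 for the 8 others, against 0.03 for all genes.

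Spi1, the myeloid master regulator PU.1, stood at 17.9 CPM in the WT vehicle medium pool and 21.1 CPM in the KO one, and at 5.47 to 6.62 CPM in the 4 HHT pools. Its log2 change was -1.68 ± 0.23 (adjusted p = 0.000165). Irf8, its partner in myeloid gene control, went from 12.0 and 10.5 CPM to between 3.73 and 4.63 CPM, a change of -1.40 ± 0.17 (adjusted p = 0.000105). For both, every HHT pool lay far below both vehicle pools. Cyth4, an exchange factor for ARF GTPases, fell by 1.03 ± 0.21, and the src-family kinase Lyn by 0.46 ± 0.16. Aif1, known as the microglial stain IBA1, fell from 2.38 and 1.81 CPM to 0.71 to 1.08 CPM, a change of -1.28 ± 0.42 (adjusted p = 0.0225).

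Fcer1g, whose coding sequence of 276 nt is the shortest of the members, stood at 5.41 and 3.75 CPM in the vehicle medium pools and 1.48 to 2.38 CPM in the HHT pools, a fall of 1.26 ± 0.34. Ly86 fell by 0.86 ± 0.30. In the other direction, Csf1r, the receptor for CSF1 and IL-34, stood at 12.0 and 19.4 CPM in the vehicle pools and at 38.0, 28.4, 39.8 and 52.2 CPM under HHT, a rise of 1.35 ± 0.25 (adjusted p = 0.000781). Cx3cr1 rose by 1.15 ± 0.23 and Mpeg1 by 1.09 ± 0.24. The C1q chains did not pass, at -0.03, -0.32 and -0.36 on the log2 scale for C1qa, C1qb and C1qc, although each had risen in input.

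Over the 37 members the change in medium polysomes had a Spearman correlation of 0.494 with coding length, and of 0.777 over the 29 membrane or secreted products. All genes with a hydrophobic stretch of 19 residues also had a higher median change in medium over 2000 nt (0.64) than under 1000 nt (0.23), as did those without one (0.20 and -0.55). This describes genes measured in the same libraries, and the members' correlations for the change in input were -0.11 and 0.113. WT slices alone gave 2 members higher and 5 lower in medium, where 20.7% of all genes were higher and 17% lower. KO slices alone gave 3 and 3, where 10.6% and 8.43% of all genes were.

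The balance of calls in medium changed with the tool, to 5 higher and 4 lower with DESeq2 and 7 higher and 6 lower with limma. Of all genes, 21.9% were higher and 19.8% lower with DESeq2, and 29.3% and 17.5% with limma.

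In heavy polysomes HHT raised 1 and lowered 6 members, where 27.1% of all genes rose and 24.7% fell. The 1 was Tlr2, and the 6 were all cytosolic or nuclear: Plek, Inpp5d, Lyn, Cyth4, Spi1 and Irf8. The 29 membrane or secreted members had a median of 0.09 and the 8 others a median of -1.04, against 0.06 for all genes. With RLE scaling, which lowered the median of all genes to -0.06, the 29 had a median of -0.02 and the 8 a median of -1.16.

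Plek had the largest fall of the members. It stood at 68.3 CPM in the WT vehicle heavy pool and 66.2 CPM in the KO one, and at 14.7, 15.1, 16.8 and 15.7 CPM in the 4 HHT pools. The log2 change was -2.11 ± 0.15 (adjusted p = 3.38e-06). Inpp5d, the inositol phosphatase SHIP1 that restrains signalling from immunoreceptors, went from 26.4 and 30.2 CPM to between 9.97 and 12.9 CPM, a change of -1.31 ± 0.15 (adjusted p = 1.47e-05). Lyn went from 12.0 and 10.8 CPM to between 4.12 and 5.75 CPM, a change of -1.23 ± 0.17 (adjusted p = 5.35e-05). In each case the HHT pools were close together and far below both vehicle pools.

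Cyth4 fell by 1.07 ± 0.24, Spi1 by 1.02 ± 0.30 and Irf8 by 0.81 ± 0.20 in heavy polysomes. Spi1 stood at 8.31 and 7.47 CPM in the vehicle pools and 3.59 to 4.21 CPM in the HHT pools. The 2 cytosolic members not called were Dock2, an exchange factor for Rac, at -0.45 ± 0.22 (adjusted p = 0.104) and Aif1 at -0.22 ± 0.60, the latter with at most 1.34 CPM in any heavy pool. Tlr2 rose from 3.88 and 4.83 CPM to 6.40 to 7.49 CPM, a change of 0.67 ± 0.20 (adjusted p = 0.0128). DESeq2 did not call it. The remaining 28 membrane or secreted members lay between -0.51 (Olfml3) and 0.56 (Unc93b1). For 29 of the 37 members the HHT and vehicle heavy pools overlapped. The HHT pools all lay above vehicle for 1 member and below for 7, against 35.2% and 32.9% of all genes.

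**Figure D2:**
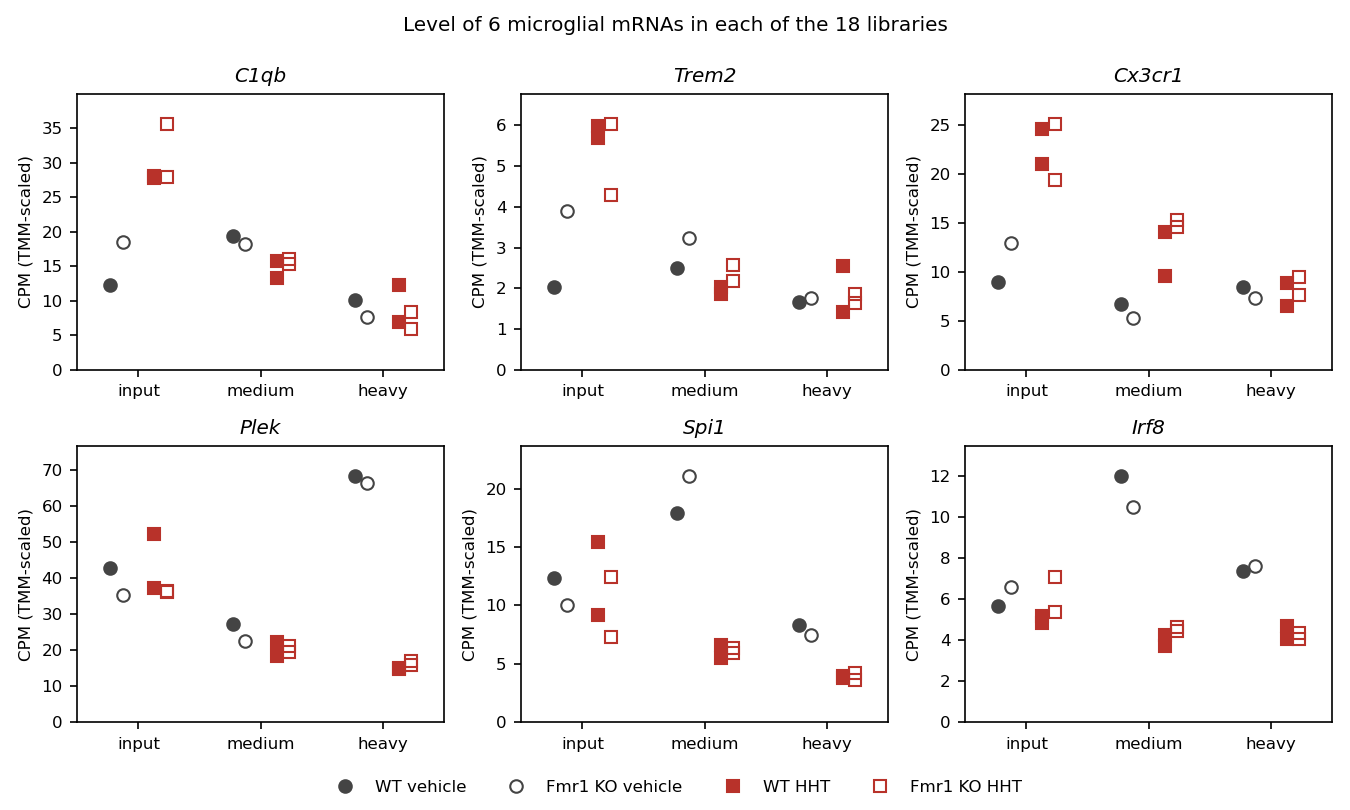
Level of 6 members in each of the 18 libraries, in CPM after TMM scaling, for C1qb, Trem2 and Cx3cr1 (top) and Plek, Spi1 and Irf8 (bottom). Circles are vehicle and squares HHT libraries, filled for WT and open for KO, 1 point a library. The upper genes are higher under HHT in input, and the lower genes lie lower under HHT in medium polysomes, heavy polysomes or both, with Plek falling from 66.2 to 68.3 CPM down to 14.7 to 16.8 CPM in the heavy pools.

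A division by product was also seen, in input and heavy polysomes, in further microglial genes that are not among the 37. They were sorted by the known location of their product, with earlier results of these data in view, so their counts are a description. Of 32 tested genes with a membrane or secreted product, 11 rose and 0 fell in input, 9 rose and 0 fell in medium, and 5 rose and 1 fell in heavy polysomes. Of 34 with a cytosolic or nuclear product, 0 changed in input, 7 fell in medium and 26 fell in heavy polysomes, and 0 rose in any of the 3. Their medians in heavy polysomes were 0.23 and -1.14. Lcp2, the adaptor SLP-76, did not pass in input (0.50 ± 0.18) and fell by 1.76 ± 0.20 in heavy polysomes.

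**Figure D3:**
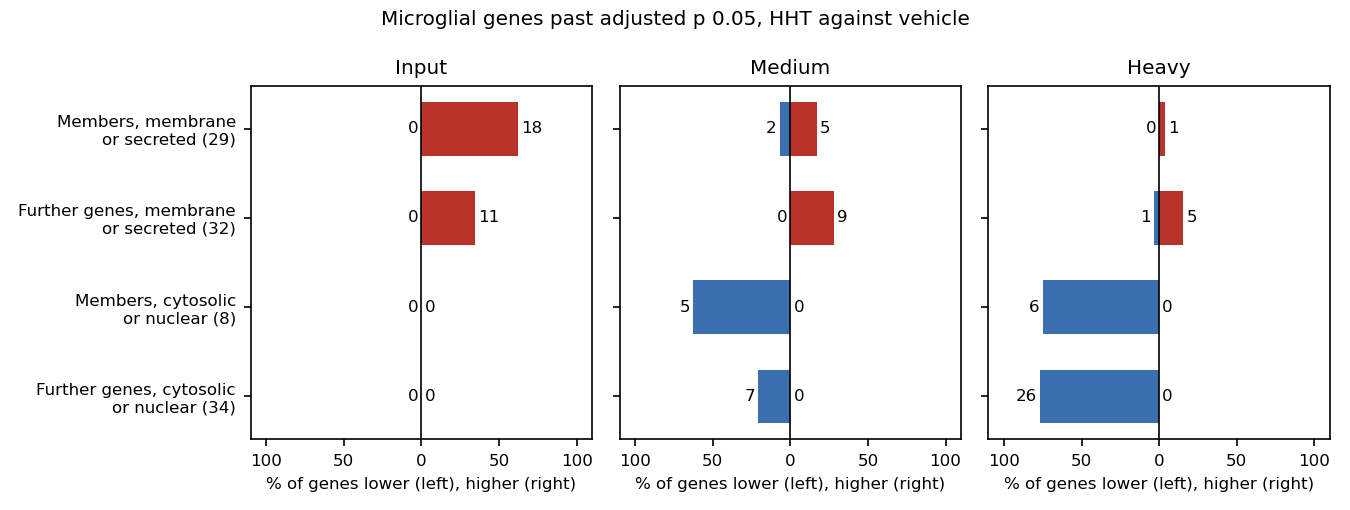
Share of genes past an adjusted p of 0.05 in HHT against vehicle, lower to the left (blue) and higher to the right (red), with the number of genes beside each bar. Rows are the 29 and 8 members and the 32 and 34 further microglial genes by location of the product. Calls in input are all to the right and all among membrane or secreted products, and 6 of 8 and 26 of 34 cytosolic or nuclear genes lie to the left in heavy polysomes. Of all genes, 12.2% rose in input and 24.7% fell in heavy polysomes.

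Among all genes with a coding sequence, the 4745 whose product held a hydrophobic stretch of 19 residues had a median change of 0.38 in input, 0.50 in medium and 0.68 in heavy polysomes. The 8301 without one had medians of -0.06, -0.15 and -0.19. This rule leaves out the window near the start, so membrane or secreted members such as C1qb and Trem2 count as without. The 22 members with a stretch of 19 residues had medians of 0.76, 0.22 and 0.11. They stood above the wider class in input and below it in both polysome pools. This compares medians of genes measured in the same libraries and was not tested.

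The other genes of the microglial pathways moved as follows. The ligands read by microglial receptors, which neurons and glia make, were Cx3cl1, Csf1, Il34 and Tgfb1. Of these, 3 rose in input, 4 in medium and 4 in heavy polysomes. Cx3cl1 (fractalkine), the ligand of Cx3cr1, rose by 1.27 ± 0.19, 1.41 ± 0.19 and 1.54 ± 0.19 in the 3 fractions, whereas Cx3cr1 itself changed by 1.06, 1.15 and 0.03. Csf1 and Il34, the ligands of Csf1r, rose by 0.97 and 0.55 in input and by 0.82 and 1.33 in heavy polysomes, where Csf1r had an estimate of -0.37 ± 0.24 (adjusted p = 0.216). Of 8 complement components and inhibitors beside C1q, 5 rose in input, 7 in medium and 4 in heavy polysomes. The share of all genes that rose was 12.2% in input, 25.4% in medium and 27.1% in heavy polysomes.

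Of 14 tested genes that rise in microglia around plaques and injury, 12 rose in input, 10 rose and 1 fell in medium, and 9 rose and 1 fell in heavy polysomes. Of all genes, 12.2% rose in input, 25.4% rose and 21.5% fell in medium, and 27.1% rose and 24.7% fell in heavy polysomes. The protease Ctsb rose by 1.55 ± 0.18, 1.46 ± 0.18 and 1.25 ± 0.18 in the 3 fractions. Cd9, a tetraspanin, rose by 1.44 ± 0.18 in input and did not pass in heavy polysomes (0.21 ± 0.20). Many of these genes are also expressed by other brain cells.

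The second comparison followed members from input into the gradient within a treatment. Under HHT the heavy pools held less of nearly every member, relative to other genes, than the inputs of the same lysates. In heavy against input, 0 members were higher and 34 were lower, where 27.6% of all genes were higher and 30.4% lower. The median was -1.29 on the log2 scale for the members and -0.04 for all genes. The 3 not called were Ptprc (-0.08 ± 0.17), Inpp5d (0.17 ± 0.13) and Dock2 (0.14 ± 0.17), whose coding sequences of 3879, 3573 and 5484 nt are the 3 longest of the members.

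Laptm5 had the smallest adjusted p (2.21e-06). It stood at 36.6, 38.4, 34.2 and 49.2 CPM in the 4 HHT inputs and at 13.2, 8.90, 11.5 and 10.7 CPM in the heavy pools of the same lysates, a difference of -1.85 ± 0.16. C1qc went from 22.2, 22.6, 19.5 and 29.4 CPM to 7.49, 6.18, 7.76 and 5.96 CPM, a difference of -1.78 ± 0.16 (adjusted p = 2.69e-06). Plek went from 37.03, 52.2, 36.2 and 35.9 CPM to 14.7, 15.1, 16.8 and 15.7 CPM, a difference of -1.36 ± 0.13 (adjusted p = 3.07e-06). The input and heavy ranges of each of these genes were far apart. The most depleted were the 2 short adaptors, Tyrobp at -2.19 ± 0.33 and Fcer1g at -1.98 ± 0.27. In all 4 HHT lysates 32 members had a heavy to input ratio below 1, and in both vehicle lysates 25 did. The share of all genes with such ratios was not counted.

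Medium polysomes took the same direction under HHT, with 0 members higher and 26 lower than input, where 13.4% of all genes were higher and 17% lower. The 26 were 23 membrane or secreted products and 3 of the others, and the median was -0.84. Laptm5 (-1.29 ± 0.15), Plek (-0.98 ± 0.12) and Ctss (-1.31 ± 0.17) had the smallest adjusted p-values. Ctss stood at 10.5, 6.62, 9.36 and 9.71 CPM in the medium pools. Csf1r did not pass (-0.05 ± 0.18), and its medium pools (28.4 to 52.2 CPM) overlapped its HHT inputs (26.7 to 48.0 CPM). Without KO HHT replicate 2, 17 members passed.

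Heavy against medium pools under HHT gave 0 members higher and 15 lower, where 19% of all genes were higher and 16.8% lower. The median was -0.46. Cd14 was at 16.1, 14.6, 15.1 and 15.1 CPM in the medium pools and 9.74, 5.75, 8.68 and 8.53 CPM in the heavy ones, a difference of -0.91 ± 0.16 (adjusted p = 0.000763). C1qb differed by -0.87 ± 0.18 and Lyn by -0.65 ± 0.14. Leaving out WT HHT replicate 2 gave 4 calls, KO HHT replicate 1 gave 7 and KO HHT replicate 2 gave 3. Fewer of all genes were called lower in each of these fits too. Only 2 members, C1qb and Cd14, passed under every alternative other than single genotypes.

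In vehicle slices the medians of the members differed by product. In heavy against input, 2 were higher and 10 lower, where 24.8% of all genes were higher and 21.7% lower. The 2 were Inpp5d and Plek, and the 10 were all membrane or secreted products. With 2 of 8 higher, the cytosolic or nuclear members were near the share of all genes. Inpp5d stood at 12.0 and 12.6 CPM in the WT and KO inputs and 26.4 and 30.2 CPM in the heavy pools, a difference of 1.1972 ± 0.17 (adjusted p = 0.000145). Plek stood at 42.8 and 35.2 CPM in input and 68.3 and 66.2 CPM in heavy, a difference of 0.79 ± 0.17 (adjusted p = 0.00185). Both libraries of each pool were on the same side. The 10 included the 3 C1q chains (-0.78 to -0.98), Tyrobp (-2.03 ± 0.57) and Ly86 (-1.51 ± 0.37, adjusted p = 0.0048). The medians were -0.65 for the 29 membrane or secreted members and 0.32 for the 8 others. With library totals in place of TMM factors, which moved the median of all genes to -0.41, 1 was higher and 20 were lower, and the 8 had a median of -0.06.

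Of 34 further microglial genes with a cytosolic or nuclear product, 16 were higher and 2 lower in vehicle heavy pools than in input. Of 32 with a membrane or secreted product, 0 were higher and 3 lower. Of all genes, 24.8% were higher and 21.7% lower. In medium against input in vehicle slices, 2 members were higher and 6 lower, where 10.2% of all genes were higher and 9.5% lower. The 2 were the transcription factors. Irf8 stood at 5.66 and 6.60 CPM in input and 12.0 and 10.5 CPM in the medium pools, a difference of 0.88 ± 0.20 (adjusted p = 0.0106). Spi1 stood at 12.3 and 9.98 CPM in input and 17.9 and 21.1 CPM in medium, a difference of 0.81 ± 0.27 (adjusted p = 0.0485). Plek was lower in medium than in input (-0.65 ± 0.17, adjusted p = 0.0214). With DESeq2 Spi1 did not pass and Irf8 was given no adjusted p. The count of 8 depended on the libraries in the fit: leaving out the first KO HHT lysate (replicate 1) gave 2, leaving out the second (replicate 2) gave 3, and it was 0 in KO slices alone, where 9 members had an unadjusted p under 0.05.

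In heavy against medium in vehicle slices 3 members were higher and 8 lower, where 25.9% of all genes were higher and 28.1% lower. Inpp5d (1.54 ± 0.18), Plek (1.45 ± 0.18) and Csf1r (0.92 ± 0.29) were higher. The 3 C1q chains, Spi1, Irf8, Tmem119, Selplg and Ly86 were lower, with C1qc at -1.12 ± 0.25 and Spi1 at -1.3035 ± 0.29. With RLE scaling 4 were higher and 4 lower, and in WT slices alone 3 were higher and 2 lower.

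Across the 37 members the heavy to input difference was larger for longer coding sequences, as it was over all genes. Among all genes with a hydrophobic stretch of 19 residues, the median difference in vehicle was -0.68 under 1000 nt and 0.23 over 2000 nt, and under HHT it was -0.47 and 0.52. Among those without one it was -0.60 and 0.57 in vehicle, and -0.58 and 0.37 under HHT. Over the members the Spearman correlation with coding length was 0.765 in vehicle and 0.77 under HHT, as a description over genes that share libraries. In the plot of heavy to input ratios by coding length, Tyrobp (342 nt) lies lowest in both treatments and Inpp5d (3573 nt) highest. Plek (1050 nt) stood apart in vehicle, where its difference of 0.79 lay between those of Inpp5d (1.1972) and Dock2 (0.35). Under HHT its -1.36 was near that of Cx3cr1 (1062 nt), at -1.48.

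**Figure D4:**
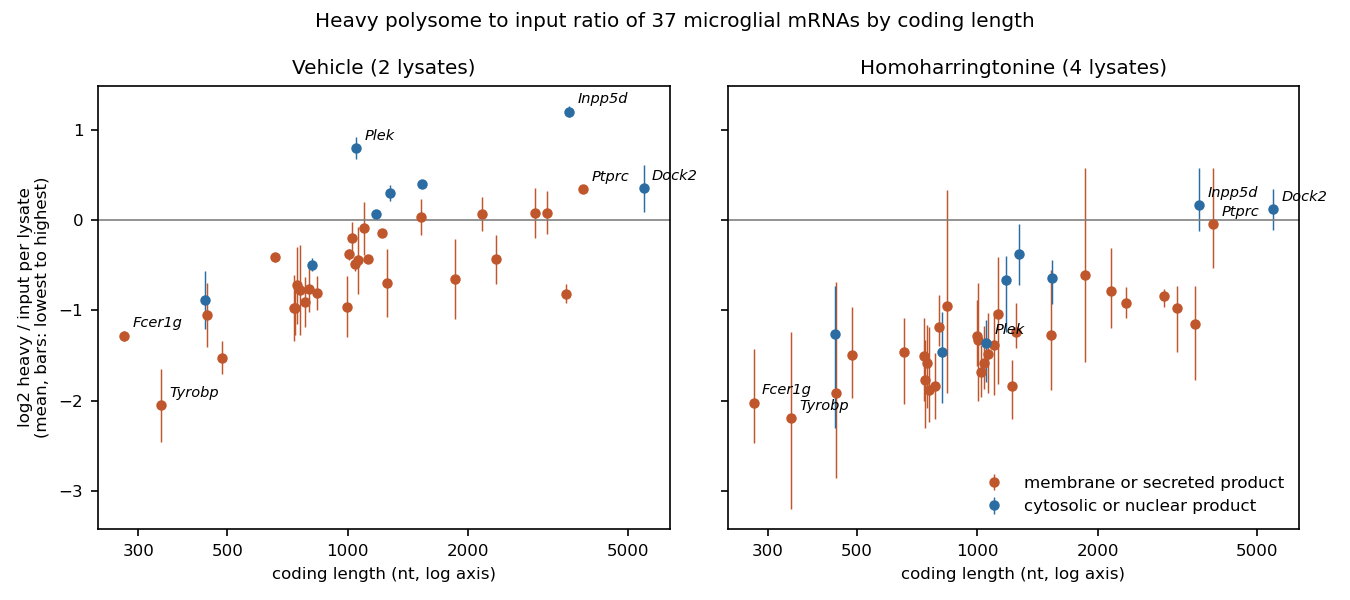
Heavy polysome to input ratio of the 37 members (log2, mean over lysates with bars from the lowest to the highest lysate) against coding length in nt on a log axis, for 2 vehicle and 4 HHT lysates. Orange points are membrane or secreted and blue points cytosolic or nuclear products. Ratios are higher for longer coding sequences in both panels, and nearly all members lie below 0 under HHT.

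The third comparison asked how far HHT moved the ratio of a polysome pool to input. For heavy pools the shift was downward for 13 members and upward for 0, where 16.3% of all genes shifted down and 12.6% up. The median was -0.85 for the members and 0.01 for all genes, and 36 of the 37 estimates were below 0, with Ly86 at 0.03 ± 0.44 the other. The median was nearly the same for the 29 membrane or secreted members (-0.85) and the 8 others (-0.86), although the 2 kinds reached it through different fractions. Of the 29, 18 rose in input and 1 changed in the heavy pools, whereas of the 8, 0 changed in input and 6 fell in the heavy pools.

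Plek showed the largest shift, at -2.15 ± 0.21 (adjusted p = 0.000157). Its log2 heavy to input ratio was 0.67 and 0.91 in the WT and KO vehicle lysates and -1.34, -1.79, -1.11 and -1.19 in the HHT lysates. Olfml3 shifted by -1.70 ± 0.35 (adjusted p = 0.0031), from -0.15 and -0.13 to between -2.20 and -1.55. Inpp5d shifted by -1.03 ± 0.22 (adjusted p = 0.00364), from 1.14 and 1.26 to between -0.12 and 0.57. For 22 of the 37 members every HHT lysate had a lower ratio than both vehicle lysates. The share of all genes separated in this way was not counted. Without WT HHT replicate 2, or without KO HHT replicate 2, 7 members passed.

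For medium pools the shift was downward for 10 members and upward for 0, where 10.2% of all genes shifted down and 7.09% up. The median was -0.68. Irf8 shifted by -1.27 ± 0.25 (adjusted p = 0.00591), C1qc by -1.33 ± 0.27 (adjusted p = 0.00676) and Spi1 by -1.64 ± 0.34 (adjusted p = 0.00695). The log2 medium to input ratio of Spi1 was 0.54 and 1.08 in vehicle and -0.46, -1.50, -0.29 and -0.97 under HHT. That of C1qc was 0.33 and -0.05 in vehicle and -1.15, -1.301, -0.78 and -1.46 under HHT. Neither gene's treatments overlapped. The other 7 were C1qa, C1qb, Trem2, Fcer1g, Laptm5, Cd14 and Lyz2. Without KO HHT replicate 2, 5 members passed, and without WT HHT replicate 2, 6.

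All genes with a hydrophobic stretch of 19 residues had a median heavy to input shift of 0.24, and those without one of -0.14. The 22 members with such a stretch had a median of -0.65 and the 15 without of -0.99. Among genes with the stretch and a coding sequence of 1000 to 2000 nt, the median was 0.21 over 1828 genes and -0.95 over the 7 members. These differences between members and the wider class were not tested.

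The last comparison set KO against WT. Under HHT, with 2 libraries on each side of a fraction, 0 of the 37 members differed in input, medium or heavy polysomes, and the share of all genes called was 0% in each. Unadjusted p-values under 0.05 numbered 3, 1 and 1 of 37 with edgeR, and DESeq2 and limma called 0 as well. Unadjusted counts were 1, 0 and 0 with DESeq2 and 2, 1 and 2 with limma. The smallest unadjusted p in input was that of Selplg, at 0.68 ± 0.20 (adjusted p = 0.89), with 9.95 and 9.04 CPM in WT and 13.6 and 17.1 CPM in KO. The 2 of 5 blood markers that were tested, summed, were higher in every KO than in every WT library of the same fraction and treatment. Under HHT they stood at 2.92 and 2.19 CPM in WT input and 10.4 and 27.8 CPM in KO input, and neither passed (smallest adjusted p = 0.0817). Their part in the KO and WT values of the members was not tested. The median over members was 0.07 in input, 0.09 in medium and 0.06 in heavy polysomes. The median SE of a member was 0.22 to 0.27 in these comparisons, so differences of that size were not detectable. Larger ones could be missed too. With 0% of all genes called, Fmr1 itself did not pass, although its CPM separated WT from KO libraries.

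The response to HHT was compared between genotypes as an interaction. It gave 0 members and 0% of all genes in input, medium and heavy polysomes, with 2, 0 and 1 members at an unadjusted p under 0.05. DESeq2 and limma also called 0, with 0, 0 and 1 and 2, 0 and 2 members at an unadjusted p under 0.05. The median SE of a member was 0.42 to 0.50, wider than for any other comparison, since each vehicle arm of the contrast is 1 library.

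In vehicle slices KO and WT are 1 library each per fraction, so their difference has no replicate check and no test. The blood markers summed to 3.51 CPM in the WT and 13.5 CPM in the KO vehicle input. In input 7 members were at least 1.5-fold higher in KO and 1 at least 1.5-fold lower, against 3.71% and 1.54% of all genes. The 1 was the adaptor Tyrobp, at 5.77 CPM in WT and 3.21 CPM in KO. In medium the numbers were 3 and 2, against 3.73% and 2.15% of all genes, and in heavy polysomes 3 and 1, against 3.81% and 2.15%. Tmem119, a membrane protein used as a microglial marker, stood at 1.70 CPM in WT and 3.21 CPM in KO in vehicle input, and at 3.30 and 3.11 CPM in medium. Csf1r stood at 21.2 CPM in WT and 35.7 CPM in KO in vehicle input and 26.9 and 31.2 CPM in heavy polysomes.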

How the data were processed

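Polysome RNA sequencing of 18 libraries was read from the deposited table of estimated counts per gene. Of its values 0 are whole numbers, and whether they were rescaled before deposit was not established. Per the submitters' processing notes, the tools were RSEM 1.2.11, Bowtie2 2.1.0, DESeq2 1.16.1 and Trimmomatic 0.32, the build was mm10, and no role is stated for any of them. A second deposited table holds TPM values that were rescaled, treated here as a score with no fixed total because 10 of 18 columns sum to more than TPM allows. They serve for levels between genes and for the limma alternative.

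Estimated counts were rounded, filtered with filterByExpr and scaled by TMM. They were fitted over all 18 libraries with 12 group means by edgeR 4.0.16 (quasi-likelihood F-test, 2-sided, R 4.3.3), with Benjamini-Hochberg adjustment over 13973 genes and a threshold of 0.05. HHT comparisons average the genotypes. Alternatives used RLE or total counts, no filter, DESeq2 1.42.0, limma 3.58.1 on log2 of the rescaled values plus 1, fewer libraries and replicate blocks. Vehicle groups of 1 library take their spread from the HHT groups, which assumes that they vary alike. P-values measure the spread between these pooled lysates.

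The members and lists were chosen with earlier results of these data known. All members may be named. Library values are given for the 3 called members with the smallest adjusted p in a comparison, for those called against the direction of most and for cytosolic or nuclear ones, with a few more chosen after their values were seen. Other lists name at most 3 genes by adjusted p in input. Coding sequences came from GENCODE M21, where 13046 genes matched.

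Fractions of a lysate share slices. Deviations of HHT libraries of a lysate from their group means correlated at 0.024 to 0.375, so the lysate was also fitted as a block.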

Additional observations from a re-analysis of the deposited data

How the results depend on the processing

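No called member changed sign under any alternative, but the balance of higher and lower calls in some comparisons did (heavy against input in vehicle in WT slices alone was 2 higher and 1 lower, against 2 and 10). Calls were then followed through every alternative other than single genotypes. A member to which DESeq2 gave no adjusted p was counted as passing there. For HHT against vehicle, calls kept throughout numbered 13 of 18 in input, 7 of 12 in medium and 6 of 7 in heavy polysomes. Under HHT they numbered 17 of 26 for medium against input, 28 of 34 for heavy against input and 2 of 15 for heavy against medium. In vehicle they numbered 1 of 8, 8 of 12 and 6 of 11, where the 1 was Irf8, to which DESeq2 gave no adjusted p. For the shifts of medium and heavy to input they numbered 4 of 10 and 6 of 13.

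Single genotypes gave fewer calls. HHT against vehicle gave 0 members in input in KO slices alone, and 7 (WT) and 6 (KO) in medium. Heavy against medium under HHT gave 3 (WT) and 4 (KO). In vehicle, medium against input gave 1 (WT) and 0 (KO), heavy against input 3 (WT), and heavy against medium 5 (WT) and 6 (KO). With DESeq2, medium against input in vehicle gave 3, heavy against medium in vehicle 7 and the shift of medium to input 6, with no adjusted p for 20, 3 and 17 members. Heavy against input in vehicle gave 21 with total counts and 22 with limma, where 38.9% and 34.6% of all genes were lower, against 21.7% with TMM. Heavy against medium in vehicle gave 19 and 18, where 40.9% and 34.3% of all genes were lower, against 28.1% with TMM. The cause was not tested.

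Leaving out each HHT replicate gave 17 to 26 members for medium against input and 3 to 13 for heavy against medium under HHT. It gave 2 to 6 for medium against input in vehicle, 5 to 11 for the shift of medium to input and 7 to 17 for the shift of heavy to input. In each of these fits the share of all genes called lower was also below that of the fit to all 18 libraries. Total counts moved the median of all genes to -0.28 in heavy against input under HHT, and split medium against input in vehicle into 1 higher and 6 lower.

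With the lysate as a replicate block, 26 members passed in medium against input, 33 in heavy against input and 17 in heavy against medium under HHT. In vehicle 8, 12 and 15 passed, and 13 and 17 in the shifts of medium and heavy to input. With the replicate number as a replicate block, 0 members differed between KO and WT. Numbers shared by WT and KO correlated at 0.024 to 0.346. Small counts limit the 9 members with a count under 10 in some library.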

Other observations

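Markers of border macrophages, a further macrophage population of the brain, had 0 of 5 called in medium polysomes and 2 of 5 lower in heavy polysomes with HHT. Of all genes, 25.4% rose and 21.5% fell in medium, and 24.7% fell in heavy polysomes. The endocytic adaptor Dab2, a cytosolic protein, fell by 1.70 ± 0.20 in heavy polysomes and did not pass in input (0.32 ± 0.19). The mannose receptor Mrc1, a membrane protein, rose by 0.86 ± 0.24 in input and did not pass in heavy polysomes (0.25 ± 0.29). The 5 markers summed to 37.4 to 41.0 CPM in the vehicle heavy pools and 17.7 to 18.98 CPM in the HHT heavy pools.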
